A study of Mus musculus with 6 samples.

Results

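The 9 genes described here encode the pore-forming subunits of the AMPA and kainate receptors. Gria1 to Gria4 encode the 4 AMPA subunits GluA1 to GluA4, and Grik1 to Grik5 the 5 kainate subunits GluK1 to GluK5. They were taken by gene symbol from the 31053 gene IDs of the count matrices, and each symbol matched 1 ID. UMIs were summed per library and per class of nuclei. Levels were described across classes in vehicle libraries, and the HDAC inhibitor was compared with vehicle after conditioning and after context exposure.

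Single nuclei from hippocampus (labelled DG) of male C57BL/6J mice aged 12 weeks were sequenced with a droplet 3′ assay, in 6 libraries that each pooled 5 mice, 30 mice in all if no pool was shared. Mice of the HDACi groups received CI-994, an inhibitor of class I histone deacetylases, at 30 mg/kg by intraperitoneal injection 1 h before the exposure, and mice of the Veh groups received the same solvent without it. For CFC, contextual fear conditioning, the stay in the chamber held 2 foot shocks of 0.2 mA. Context mice were exposed to the chamber with no shock, and mice of all groups were killed 1 h after the exposure. There were 2 HDACi-CFC and 2 Veh-CFC libraries, and 1 HDACi-Context and 1 Veh-Context library. The labels do not say whether replicate libraries were prepared apart or from separate pools. The p-values thus measure the spread between libraries, which hides the spread between single animals and may not cover that between pools. With 2 libraries per group they also rest on a spread that edgeR estimates with the help of all genes.

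AMPA receptors are tetramers that carry most of the fast excitatory current at central synapses. The GluA2 subunit, whose transcript is edited at the pore, makes a receptor nearly impermeable to calcium, and receptors without it let calcium pass. GluA1 tail sites take part in the insertion of receptors during synaptic potentiation, and GluA4 is known for fast-gating receptors of interneurons. Kainate receptors combine the low-affinity subunits GluK1 to GluK3, which can form channels by themselves, with the high-affinity subunits GluK4 and GluK5, which need them. In hippocampus they are known for the slow synaptic current at mossy fibre synapses on CA3 pyramidal cells and for a control of transmitter release from interneurons.

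The libraries held 4070 and 5545 nucleus barcodes in HDACi-CFC, 4147 and 5059 in Veh-CFC, 6116 in HDACi-Context and 5386 in Veh-Context, with 24508202 to 45570814 UMIs each. After filters on genes, mitochondrial UMIs and doublets 26839 nuclei remained, with a median of 5368 to 6808 UMIs per library. Any pair of libraries shared at most 11 barcodes. Classes were named from marker genes and are written with "-like", and the receptor subunits and their partner genes were left out of the clustering. The Veh-Context library has vehicle in its title and treatment label and HDACi in its description. In the 100 top and the 100 bottom genes by CFC fold change in DG granule-like nuclei, it lay nearer HDACi-CFC for 11 and 5, against 95 and 97 for HDACi-Context, and it is called here the library labelled Veh-Context. Both Context libraries were processed with another software version than the CFC libraries and stood apart from them in several of the 9 genes (in DG granule-like nuclei Grik5 had 87.1 CPM in the library labelled Veh-Context and 141 and 147 CPM in Veh-CFC), so no comparison of CFC with Context was made. DG granule-like nuclei averaged 5911 and 6812 UMIs in HDACi-CFC, against 6599 and 7457 in Veh-CFC, which overlapped. Fold changes below are relative to the typical gene of a class (TMM scaling). Scaling to the total UMIs instead moved the median log2 fold change of all genes to -0.35 in DG granule-like, -0.33 in CA1-like, -0.26 in CA3-like and -0.34 in interneuron-like nuclei, and scaling per nucleus moved it to -0.49, -0.44, -0.40 and -0.48. With that shift the calls over all genes in DG granule-like nuclei changed to 1563 higher and 7144 lower by total UMIs and to 692 higher and 7202 lower per nucleus, against 3702 higher and 4162 lower with TMM scaling. Higher genes made up 47.1% to 67.1% of all called genes over the 13 classes with TMM scaling, 15.1% to 55.6% by total UMIs and 4.80% to 67.7% per nucleus.

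The 9 genes lie on 8 chromosomes, with the gene bodies of the 3 shown next at chr3:80681450-80802835 (Gria2), chr9:4417896-4796234 (Gria4) and chr4:125490700-125714173 (Grik3) in GRCm38. Their promoter windows, from 250 bases before to 50 bases after the start in RefSeq on GRCm38.p6, are printed as examples. The genes were picked for the patterns named next, which are not the largest fold changes over all classes. They are Gria2, with the highest fold change in DG granule-like nuclei, Grik3, with the highest in interneuron-like nuclei, and Gria4, the AMPA subunit that was lower. Each runs 5′ to 3′ on the strand of its gene, and capitals mark the GC box, GGGCGG on either strand, which is the recognition core of Sp-family factors.
Gria2 (chr3:80802786-80803085, minus strand): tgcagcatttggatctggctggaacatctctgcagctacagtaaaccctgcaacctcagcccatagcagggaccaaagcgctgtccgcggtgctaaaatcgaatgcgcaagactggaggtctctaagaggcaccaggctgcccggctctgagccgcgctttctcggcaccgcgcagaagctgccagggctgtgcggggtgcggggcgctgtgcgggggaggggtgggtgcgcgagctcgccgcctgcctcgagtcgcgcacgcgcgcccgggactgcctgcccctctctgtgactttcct
Gria4 (chr9:4796185-4796484, minus strand): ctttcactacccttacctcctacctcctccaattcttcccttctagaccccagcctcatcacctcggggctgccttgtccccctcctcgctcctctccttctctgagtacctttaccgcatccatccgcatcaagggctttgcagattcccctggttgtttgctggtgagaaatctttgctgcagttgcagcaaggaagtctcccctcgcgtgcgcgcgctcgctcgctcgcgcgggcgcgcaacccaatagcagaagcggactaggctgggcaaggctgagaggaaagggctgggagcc
Grik3 (chr4:125490446-125490745, plus strand): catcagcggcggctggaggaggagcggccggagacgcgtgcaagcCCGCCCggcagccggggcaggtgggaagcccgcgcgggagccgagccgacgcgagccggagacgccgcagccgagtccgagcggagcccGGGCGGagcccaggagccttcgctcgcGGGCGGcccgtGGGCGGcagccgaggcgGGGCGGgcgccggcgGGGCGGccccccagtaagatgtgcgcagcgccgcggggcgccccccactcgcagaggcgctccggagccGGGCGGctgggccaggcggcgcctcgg
The Grik3 window held 7 GC boxes, at a GC content of 82%, while none was found in the windows of Gria2 (65.7% GC) and Gria4 (59.7% GC). Of the other windows in the RefSeq table, Grik4 and Grik5 held 2 each and Grik2 held 0, and the box occurs in 35.7% of the 32851 windows of that length. The CRE (TGACGTCA, in 1.79% of windows), a part of the RE1 element (TTCAGCACC, 0.371%) and the AP-1 site (TGANTCA, 7.81%), searched on both strands, were in none of the 6 windows of these genes, so no GC box overlapped another motif searched. Only 6 of the 9 genes had a window in the RefSeq table used, and those of Gria1, Gria3 and Grik1 were not analysed here.

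In vehicle libraries the AMPA subunits had distinct maps over the classes. Levels here are in CPM, a gene's UMIs divided by all UMIs of its class in the library on the usual CPM scale, as mean ± SD over the 2 Veh-CFC libraries and the library labelled Veh-Context (n = 3). They compare a gene between classes, not one gene with another, and as the classes were made from the same nuclei they are described without a test. Overlap refers to the ranges over the libraries, which leave out the order of classes within a library. Gria1 was at 2687 ± 56.9 CPM in CA1-like, 2457 ± 88.1 CPM in interneuron-like and 2324 ± 31.5 CPM in DG granule-like nuclei, and at 151 ± 31.7 CPM in OPC-like nuclei (oligodendrocyte precursors). The ranges of CA1-like, interneuron-like and DG granule-like nuclei did not overlap, while DG granule-like overlapped with the next class, the unnamed Cluster 8. Gria2 was at 2082 ± 261 CPM in the unnamed Cluster 15, 1945 ± 286 CPM in CA1-like and 1888 ± 298 CPM in DG granule-like nuclei, with overlapping ranges, and at 803 ± 156 CPM in interneuron-like nuclei. Within each library Gria2 was higher in Cluster 15 than in CA1-like, and higher in CA1-like than in DG granule-like nuclei. The interneuron range for Gria2 overlapped with none of those 3 classes. OPC-like and astrocyte-like nuclei had 1224 ± 77.7 CPM and 1135 ± 186 CPM of Gria2, with overlapping ranges. Gria3 was highest in Cluster 15 (1065 ± 43.5 CPM) and then in CA1-like nuclei (835 ± 17.4 CPM), with no overlap. Its lowest mean was in Cajal-Retzius-like nuclei (42.7 ± 17.9 CPM, from 14 UMIs), whose range overlapped with those of oligodendrocyte-like and microglia-like nuclei. The map of Gria4 was another one, with 1722 ± 153 CPM in interneuron-like, 1358 ± 243 CPM in Cajal-Retzius-like, 908 ± 109 CPM in OPC-like and 129 ± 8.86 CPM in DG granule-like nuclei, and the ranges of the first and second overlapped. Within each library Gria4 was higher in interneuron-like than in Cajal-Retzius-like nuclei, at 1752 against 1409, 1858 against 1572 and 1556 against 1094 CPM.

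Grik4, Grik1 and Grik3 each had a different leading class. Grik4 stood at 1221 ± 14.2 CPM in CA3-like nuclei and 731 ± 14.1 CPM in Cluster 8, whose best matching marker list was also that of CA3. It was at 228 ± 9.04 CPM in DG granule-like and 81.9 ± 6.65 CPM in CA1-like nuclei, with no overlap between any of these ranges. Grik1 stood at 1254 ± 217 CPM in interneuron-like and 401 ± 8.76 CPM in OPC-like nuclei, and at 17.4 ± 11.6 CPM in DG granule-like nuclei, where the library labelled Veh-Context had 30.7 CPM and the Veh-CFC libraries at most 10.9 CPM. Grik3 was highest in the subicular-cortical-like class, at 231 ± 56.4 CPM, followed by interneuron-like (105 ± 6.29 CPM) and OPC-like nuclei (98.4 ± 10.1 CPM), whose ranges overlapped. CA3-like nuclei had the lowest mean of Grik3 at 2.74 ± 0.83 CPM (21 UMIs), with a range that overlapped with those of microglia-like and Cajal-Retzius-like nuclei. Within each vehicle library interneuron-like nuclei had more Grik3 than OPC-like nuclei. Grik2 was at 1695 ± 124 CPM in interneuron-like and 1593 ± 83.1 CPM in DG granule-like nuclei, whose ranges overlapped, with the first higher within each vehicle library. It was at 728 ± 34.9 CPM in CA1-like and 125 ± 32.5 CPM in Cajal-Retzius-like nuclei, and lowest in microglia-like nuclei at 58.6 ± 6.51 CPM. Grik5 was at 189 ± 62.1 CPM in CA3-like and 104 ± 27.7 CPM in interneuron-like nuclei, and each range overlapped with the next from CA3-like down to interneuron-like nuclei. Within each vehicle library CA3-like nuclei had more Grik5 than Cluster 8, the next class. Microglia-like nuclei held 3.68% to 14.2% of the DG granule-like level for 8 of the genes. The DG granule marker list was at 10.4% there, with 6 of the genes at or under that share, while Gria2 (11.4%) and Gria4 (14.2%) lay just above it and Grik1 was low in both classes. The part of background RNA in these levels was not tested.

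**Figure D1:**
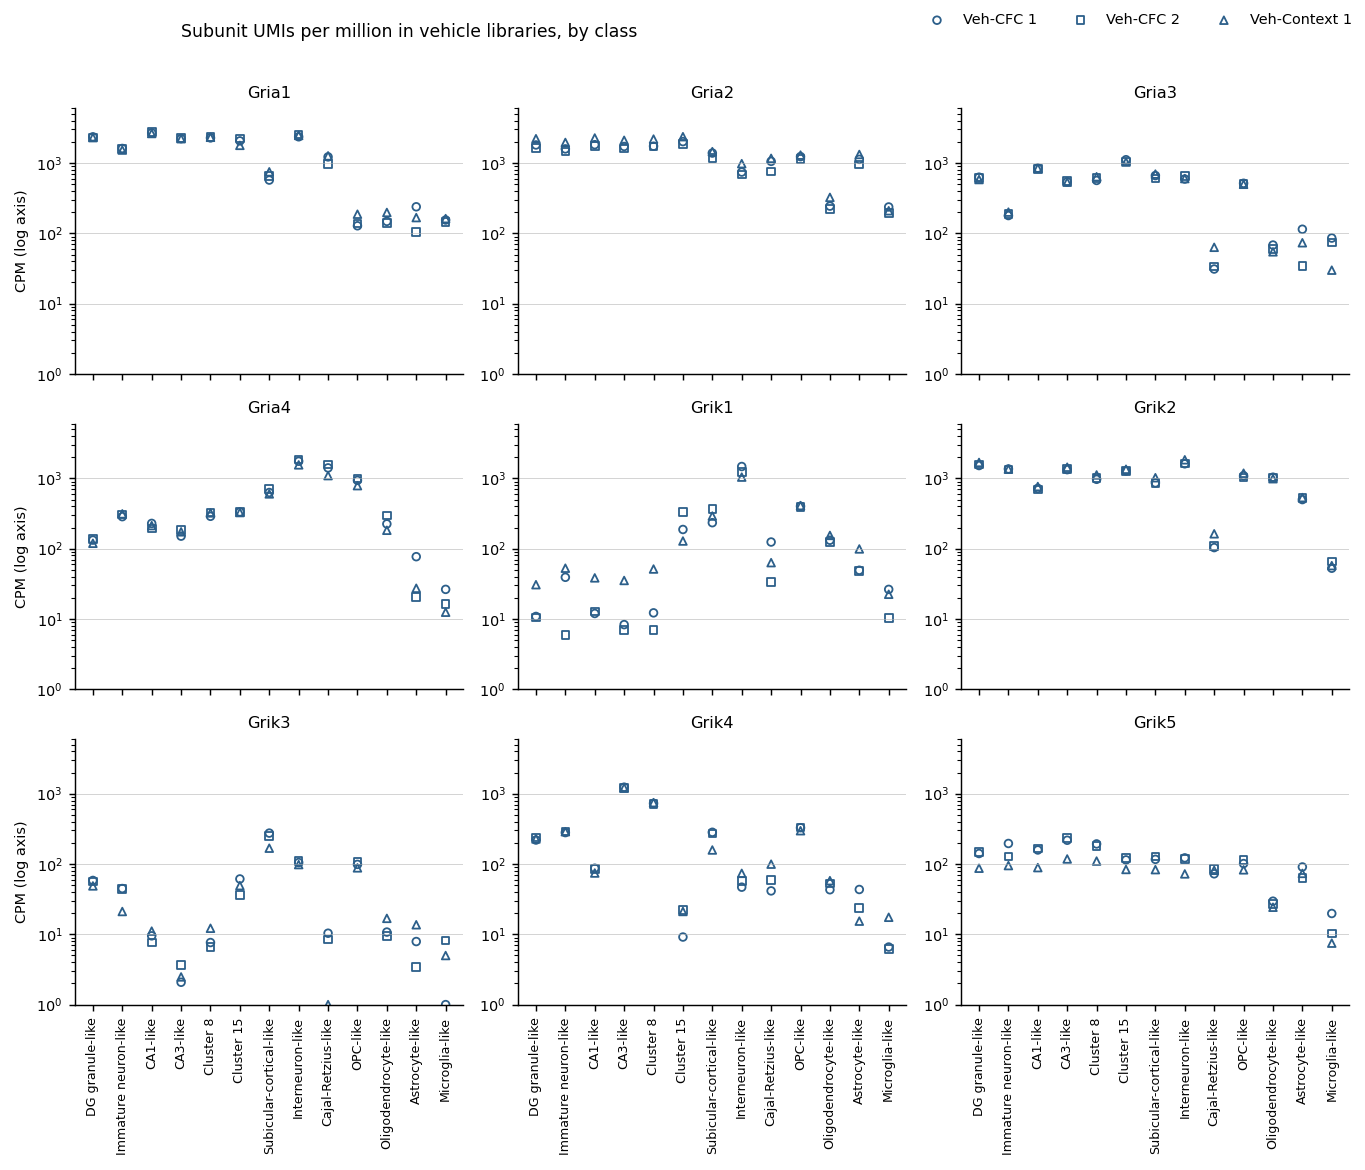
Level of each subunit in CPM (log axis) by class in the 3 vehicle libraries, 1 point per library, with counts of 0 drawn at the lower edge. Grik4 stands out in CA3-like nuclei and Cluster 8, Gria4 and Grik1 in interneuron-like nuclei, and Gria2 is lower in interneuron-like than in DG granule-like, CA1-like and CA3-like nuclei.

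The interneuron-like class held 3 clusters with different sets of subunits. Cluster 10 matched the Sst marker list best, and its top 10 genes held Sst beside Btbd11 and Cntnap4 of the list for Pvalb interneurons. This cluster had 3369.6 ± 164 CPM of Gria1, 999 ± 27.8 of Gria3, 2263 ± 214 of Gria4 and 161 ± 3.85 of Grik3. Cluster 14, led by Vip and Cnr1, had 917 ± 57.3 CPM of Gria1, 146 ± 16.5 of Gria3 and 63.6 ± 22.7 of Grik3. Cluster 17, with markers of Lamp5 cells, had 2108 ± 459 CPM of Grik1, against 1048 ± 168 in cluster 10 and 1051 ± 142 in cluster 14, and 5.45 ± 3.11 CPM of Grik3. Within CA1-like nuclei Gria4 was at 101 ± 10.6 CPM in cluster 3 and 407 ± 22.1 CPM in cluster 5.

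For each gene the 2 others whose vehicle profile was most alike, by Pearson r of log2(CPM + 1) over 17 classes and interneuron clusters among 7897 genes, were named. They were Timm9 (0.94) and Grin1 (0.93), an NMDA receptor subunit, for Gria1, Apba2 (0.95) and Gabra2 (0.92) for Gria2, Emb (0.92) and Grm5 (0.91), a metabotropic glutamate receptor, for Gria3, and Scg5 (0.94) and Lmbr1 (0.88) for Gria4. For the kainate subunits they were Alk (0.97) and Cdc14b (0.87) for Grik1, Tmem132b (0.90) and Gprasp1 (0.88) for Grik2, Tshz3 (0.81) and Olfm3 (0.78), an extracellular binding partner of AMPA receptors, for Grik3, Tmem108 (0.83) and Cacna1c (0.80) for Grik4, and Arntl2 (0.96) and Rgs7 (0.95) for Grik5. The units share libraries and differ in depth, so these values only describe likeness.

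After conditioning most subunits were higher with CI-994 than with vehicle relative to the typical gene, and Gria4 was lower. Over 13 classes 106 pairs of gene and class were tested with edgeR's quasi-likelihood test, and 57 were called higher and 8 lower at a Benjamini-Hochberg adjusted p below 0.05. In DG granule-like nuclei 7 of 9 genes rose and 1 fell, where 23.7% of all genes tested were higher and 26.7% lower, and the median log2 fold change of the 9 was 0.45 against 0.01 over all genes. Marker lists of other classes in DG granule-like nuclei also differed between the groups. The 9 astrocyte markers, all with a UMI and 96.6% Slc4a4, summed to 1342 and 1445 CPM in HDACi-CFC against 874 and 831 CPM in Veh-CFC. The 7 OPC markers, 99.1% Tnr, summed to 1301 and 1326 CPM in HDACi-CFC against 966 and 927 CPM in Veh-CFC. Each of these sums was thus nearly 1 gene. Slc4a4 was itself among the top 10 genes of cluster 1, a DG granule-like cluster. Tnr averaged 1120 CPM over the CFC libraries in DG granule-like, 768 CPM in CA1-like and 654 CPM in CA3-like nuclei. The part of these lists in the result was not tested. In CA1-like nuclei 5 rose and 1 fell of 9 (all genes 18.4% and 20.4%), in CA3-like 6 rose and 1 fell of 8 (14.3% and 12.7%), and in Cluster 8 there were 4 and 1 of 9 (14.4% and 11.6%). In interneuron-like nuclei 7 of 9 rose (17%), and 0 were lower (13.1%), with 0 also at an unadjusted p below 0.05 and 0 by DESeq2. Medians over the tested members in those 4 classes were 0.41, 0.31, 0.32 and 0.49, against -0.01 to 0.00 over all genes. The calls depended on the scaling: 36 of the 65 were kept by total UMIs and 13 per nucleus, none turned into a call in the other direction, and 6 of the 13 were Gria4. Of the 65 calls, 42 held without each library in turn, among them all 8 of DG granule-like and all 6 of CA1-like nuclei.

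**Figure D2:**
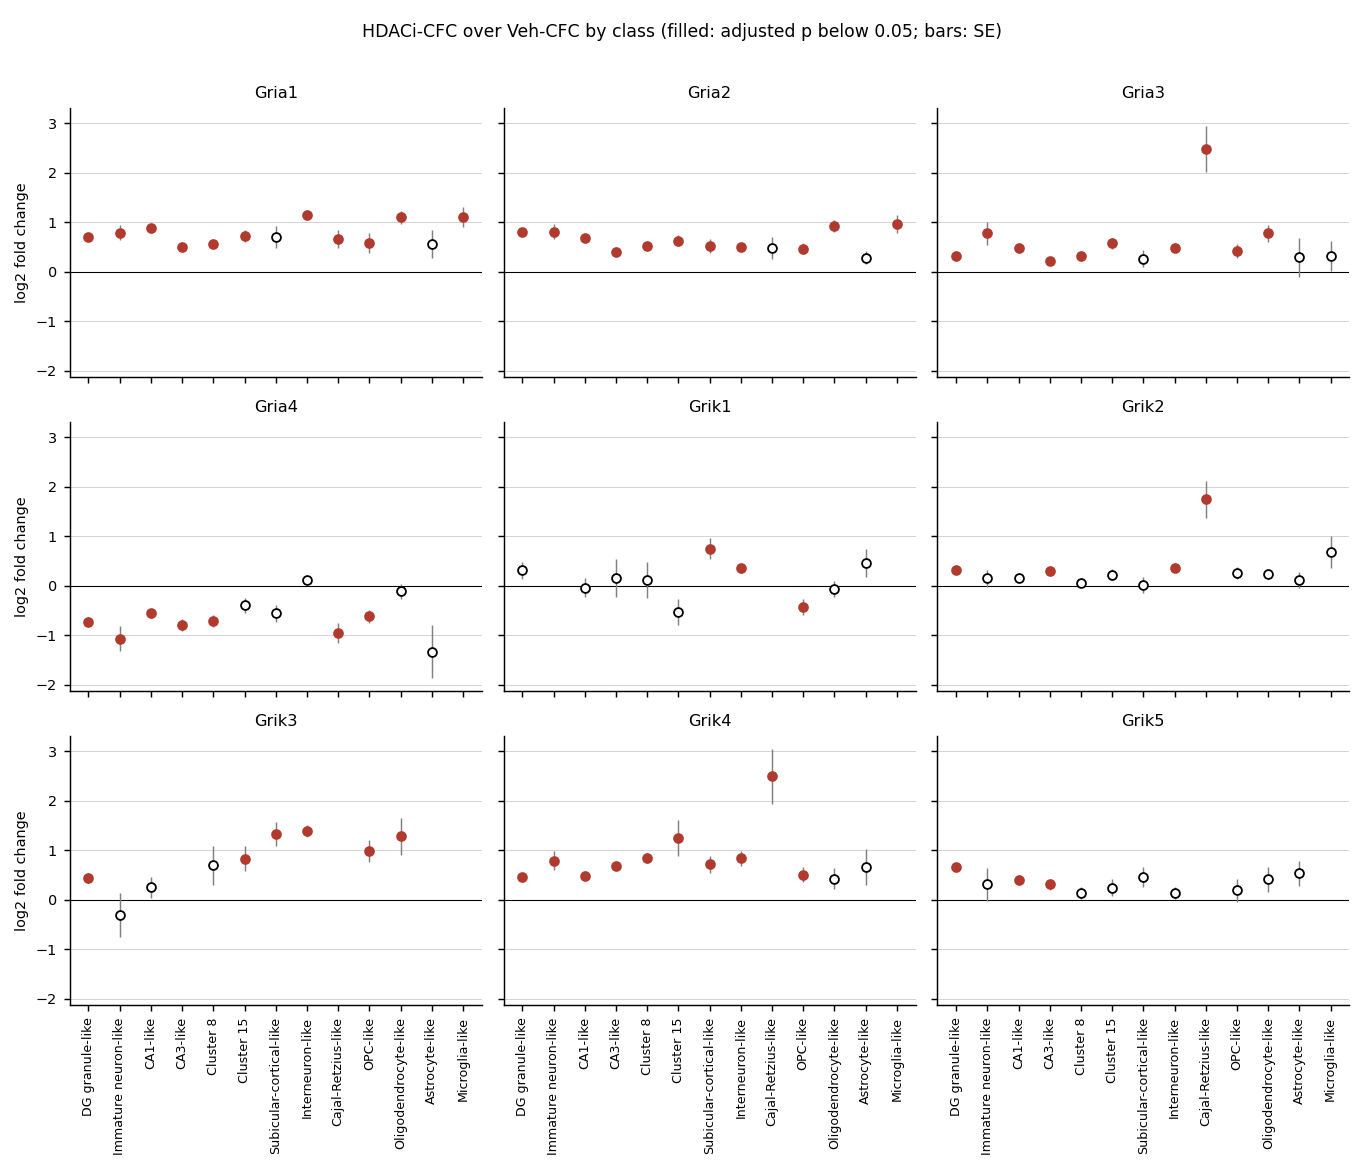
Log2 fold change of HDACi-CFC over Veh-CFC for each subunit and class (points, bars are SE), filled where the adjusted p was below 0.05. Gria1, Gria2 and Gria3 lie above 0 in the 13 classes and Grik4 in the 12 where it was tested, while Gria4 lies below 0 in 11 of 12, all with TMM scaling.

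Gria1, whose subunit is the one most tied to activity-driven insertion, was called higher in 11 of 13 classes. DG granule-like nuclei had 3446 and 3340.1 scaled CPM in HDACi-CFC, against 2099 and 2039 scaled CPM in Veh-CFC (log2 fold change 0.71 ± 0.053, adjusted p = 1.8e-10). CA1-like nuclei had 4580 and 4345 scaled CPM in HDACi-CFC, against 2399 and 2457 scaled CPM in Veh-CFC (log2 fold change 0.88 ± 0.052, adjusted p = 5.98e-09). CA3-like nuclei had 3096 and 2777 scaled CPM in HDACi-CFC, against 2083 and 2066 scaled CPM in Veh-CFC (log2 fold change 0.50 ± 0.066, adjusted p = 2.26e-07). In each of these classes both HDACi-CFC libraries lay above both Veh-CFC libraries, and CA3-like nuclei had the lowest fold change of the 13 classes. Interneuron-like nuclei had the highest, with 4925 and 4888 scaled CPM in HDACi-CFC, against 2133 and 2290.1 scaled CPM in Veh-CFC (log2 fold change 1.15 ± 0.085, adjusted p = 1.36e-07), a 2.22-fold difference. Gria1 kept its direction under other scalings in these 4 classes, at 0.35, 0.54, 0.25 and 0.82 by total UMIs, all called, and at 0.21, 0.43, 0.098 and 0.67 per nucleus, none called. In interneuron-like nuclei some lists of other classes moved with it, without overlap of the groups. The 7 CA3 markers (73.6% Cpne4) summed to 518 and 560.3 CPM in HDACi-CFC against 374 and 355 CPM in Veh-CFC, the 8 DG granule markers to 661 and 634 CPM in HDACi-CFC against 541 and 564 CPM in Veh-CFC, the 9 astrocyte markers (67.6% Slc4a4) to 124 and 119.7 CPM in HDACi-CFC against 82.8 and 82.6 CPM in Veh-CFC, and the 7 OPC markers (87.4% Tnr) to 789 and 789.6 CPM in HDACi-CFC against 539.5 and 554 CPM in Veh-CFC. All but 2 OPC markers of these lists had a UMI in each CFC library. The 9 microglia markers moved the other way, to 132 and 134 CPM in HDACi-CFC against 164 and 169 CPM in Veh-CFC, without overlap. For the CA1 list (313 and 268 CPM against 287 and 315 CPM) and the oligodendrocyte list (132 and 112 CPM against 108 and 139 CPM) the groups overlapped. The part of these lists in the interneuron-like calls, of Gria1 as of Grik3, was not tested.

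Gria2, the subunit that sets calcium permeability, was also called higher in 11 of 13 classes. Its values were 2592 and 2736 scaled CPM in HDACi-CFC, against 1609 and 1443 scaled CPM in Veh-CFC, in DG granule-like nuclei (log2 fold change 0.80 ± 0.060, adjusted p = 1.96e-10). They were 2598 and 2547 scaled CPM in HDACi-CFC, against 1629 and 1557 scaled CPM in Veh-CFC, in CA1-like nuclei (log2 fold change 0.69 ± 0.055, adjusted p = 1.09e-07). CA3-like nuclei had 2090.4 and 2014 scaled CPM in HDACi-CFC, against 1612 and 1479.8 scaled CPM in Veh-CFC (log2 fold change 0.41 ± 0.070, adjusted p = 1.97e-05). Interneuron-like nuclei had 927 and 899 scaled CPM in HDACi-CFC, against 672 and 618 scaled CPM in Veh-CFC (log2 fold change 0.50 ± 0.092, adjusted p = 0.000609). The groups did not overlap in these 4 classes, and by total UMIs the fold changes were 0.45, 0.36, 0.16 and 0.17, of which the last was not called. Gria3 was called in 10 of 13 classes, at 0.33 (adjusted p = 0.00013) in DG granule-like, 0.49 (adjusted p = 3.37e-05) in CA1-like and 0.49 (adjusted p = 0.00112) in interneuron-like nuclei. DG granule-like nuclei held 681 and 702 scaled CPM in HDACi-CFC, against 559.8 and 544 scaled CPM in Veh-CFC, which did not overlap, and the direction turned to -0.032 by total UMIs and -0.17 per nucleus. In CA3-like nuclei the call of Gria3 (0.23, adjusted p = 0.0474) was lost without any 1 of the 4 libraries, at 0.20 to 0.26, and turned to -0.023 and -0.17 under these 2 scalings.

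**Figure D3:**
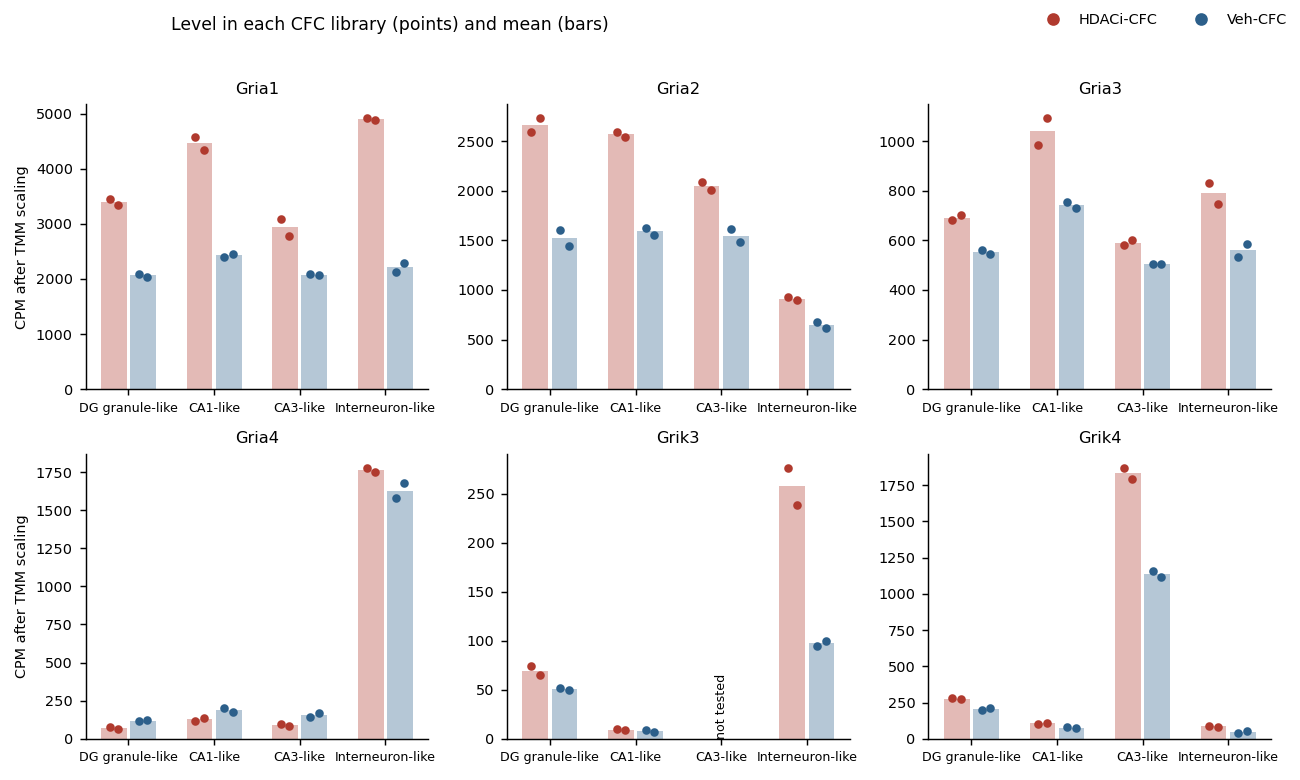
Level in scaled CPM of 6 subunits in 4 classes, HDACi-CFC left of Veh-CFC, with 1 point per library and the mean as a bar (Grik3 was not tested in CA3-like nuclei). With TMM scaling Gria1, Gria2 and Gria3 lie higher in HDACi-CFC in the 4 classes, where by total UMIs Gria3 turned to -0.032 in DG granule-like and -0.023 in CA3-like nuclei, and Gria4 lies lower in DG granule-like, CA1-like and CA3-like nuclei, not in interneuron-like ones.

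Gria4 was the AMPA subunit that fell, in 7 of 12 classes, and it was called higher in 0, also at an unadjusted p below 0.05 and by DESeq2. DG granule-like nuclei had 79.2 and 65.5 scaled CPM in HDACi-CFC, against 118 and 120.0 scaled CPM in Veh-CFC (log2 fold change -0.73 ± 0.091, adjusted p = 5.94e-07), a 1.66-fold lower level. CA1-like nuclei had 119.6 and 137 scaled CPM in HDACi-CFC, against 204 and 174 scaled CPM in Veh-CFC (log2 fold change -0.55 ± 0.097, adjusted p = 0.00029). CA3-like nuclei had 93.6 and 87 scaled CPM in HDACi-CFC, against 141 and 168 scaled CPM in Veh-CFC (log2 fold change -0.79 ± 0.12, adjusted p = 6.76e-06). In OPC-like nuclei it was at 632 and 596 scaled CPM in HDACi-CFC, against 906 and 961 scaled CPM in Veh-CFC (log2 fold change -0.61 ± 0.13, adjusted p = 0.000244). Cluster 8 (-0.70, adjusted p = 0.00021), immature neuron-like (-1.06, adjusted p = 0.0103) and Cajal-Retzius-like nuclei (-0.95, adjusted p = 0.0125) were the others. The Cajal-Retzius-like call was lost without Veh-CFC 1 (-0.93) or Veh-CFC 2 (-0.79) and the immature neuron-like call without Veh-CFC 2 (-0.997). Without each library in turn the fold change was -0.86 to -0.58 in DG granule-like nuclei and stayed called. The fall was larger under the other scalings, -1.09 by total UMIs and -1.23 per nucleus in DG granule-like nuclei, -0.88 and -0.99 in CA1-like, -1.04 and -1.18 in CA3-like and -0.93 and -1.11 in OPC-like nuclei, each called.

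Interneuron-like nuclei, where Gria4 was highest in vehicle, had 1779 and 1754 scaled CPM in HDACi-CFC, against 1582 and 1676 scaled CPM in Veh-CFC (log2 fold change 0.12 ± 0.086, adjusted p = 0.327). This difference did not pass the test and its sign depended on the scaling, with -0.21 by total UMIs and -0.36 per nucleus. The level of the interneuron markers was measured in the other classes. In CA1-like nuclei they summed to 51.1 and 51.1 CPM in HDACi-CFC against 50.5 and 52.9 CPM in Veh-CFC, and in CA3-like nuclei to 61.3 and 53.1 against 50.4 and 56.7 CPM, with 7 of 8 having a UMI in each CFC library. In OPC-like nuclei, which share Erbb4 with interneurons (66.1% of the sum), they were at 4768 and 4425 CPM in HDACi-CFC against 5341 and 5064 CPM in Veh-CFC, with Dlx1 and Dlx6os1 at 0 in a library. Their part in the OPC-like fall of Gria4 was not tested. In DG granule-like nuclei the 8 markers summed to 102 and 93.3 CPM in HDACi-CFC, against 118 and 104 in Veh-CFC, all 8 with a UMI in each CFC library, which is 0.804% and 0.738% of the interneuron-like level against 1.06% and 1.02%. That share of the interneuron-like Gria4 level amounts to 12.7 and 11.4 CPM in HDACi-CFC and 18.6 and 19.0 CPM in Veh-CFC, and the Gria4 measured was 69.7 and 57.8 CPM against 132 and 136 CPM, before TMM scaling. Gad1 made up 35.2% of the marker sum in DG granule-like nuclei. The share leaves out Cajal-Retzius-like and OPC-like nuclei, where Gria4 was also high in vehicle. The part of background RNA in the fall of Gria4 in DG granule-like, CA1-like and CA3-like nuclei was not tested.

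A count of Gria4 per 100 Gria2 UMIs of the same library needs no scaling. It is no comparison of the levels of both genes, which differ in length and capture. It was 3.06 and 2.4 in HDACi-CFC and 7.32 and 8.31 in Veh-CFC, for DG granule-like nuclei. In CA1-like nuclei it was 4.6 and 5.38 in HDACi-CFC and 12.5 and 11.2 in Veh-CFC, and in CA3-like nuclei 4.48 and 4.32 in HDACi-CFC and 8.76 and 11.3 in Veh-CFC. OPC-like nuclei had 43.5 and 34.9 in HDACi-CFC and 76 and 87.5 in Veh-CFC. The groups did not overlap in these 4 classes, with HDACi-CFC below Veh-CFC in each, and Gria2 itself was called higher in each of them. Interneuron-like nuclei had 192 and 195 in HDACi-CFC and 235 and 271 in Veh-CFC, without overlap. With TMM scaling Gria1 and Gria2 were called higher in interneuron-like nuclei, while Gria4 was not called in either direction. Among AMPA UMIs of interneuron-like nuclei the share of Gria1 was 58.2% and 59% in HDACi-CFC and 43.3% and 44.3% in Veh-CFC, and that of Gria4 was 21% and 21.2% in HDACi-CFC and 32.1% and 32.4% in Veh-CFC.

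**Figure D4:**
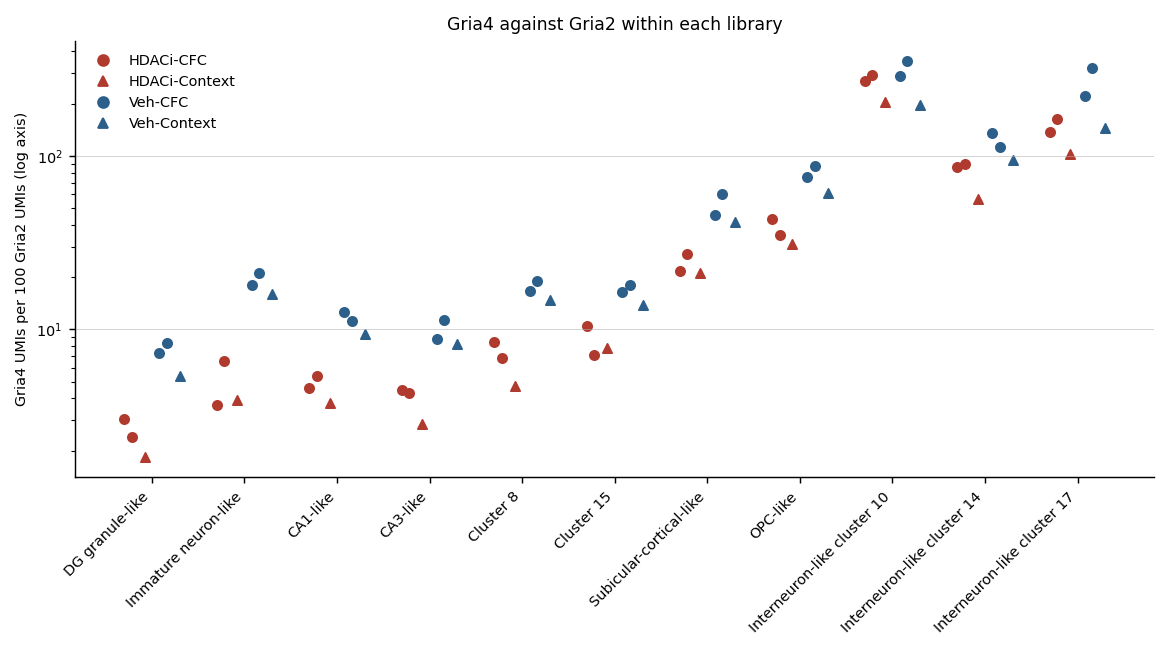
Gria4 UMIs per 100 Gria2 UMIs (log axis) in each library, by class and for the 3 interneuron-like clusters, HDACi left of Veh, circles for CFC and triangles for Context. The HDACi-CFC points lie below the Veh-CFC points in the units shown except cluster 10, where 292 in HDACi-CFC exceeds 291 in Veh-CFC.

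The clusters of 3 classes were also tested alone. Gria4 fell in each of the 3 DG granule-like clusters, at -0.69 (adjusted p = 5.99e-06) in cluster 0, -0.44 (adjusted p = 0.00166) in cluster 1 and -0.89 (adjusted p = 8.27e-09) in cluster 4, where 45.4%, 45.1% and 40.1% of all genes were called in either direction. Cluster 4 made up 15.6% and 13.5% of DG granule-like nuclei in HDACi-CFC, against 22.1% and 22.0% in Veh-CFC. The CA1-like clusters gave -0.57 (adjusted p = 0.000684) in cluster 3 and -0.36 (adjusted p = 0.00273) in cluster 5, with 37.7% and 30.9% of all genes called. Cluster 5 was 27.4% and 30.2% of CA1-like nuclei in HDACi-CFC, against 36.1% and 31.2% in Veh-CFC. In interneuron-like nuclei the clusters differed in sign with TMM scaling. Gria4 rose in cluster 10, 0.31 (adjusted p = 0.0286), fell in cluster 17, -0.49 (adjusted p = 0.0072), and was at -0.011 (adjusted p = 0.968) in cluster 14, with 21.2%, 16.7% and 13.8% of all genes called, and the difference between these clusters was not tested. Before TMM scaling cluster 10 showed no rise, with 2332 and 2400 CPM in HDACi-CFC against 2353 and 2418 CPM in Veh-CFC. Cluster 17 had 741 and 717 CPM against 1162 and 1298 CPM, and cluster 14 had 816 and 876 CPM against 1097 and 976 CPM. Gria1 rose in all 3, by 1.33 (adjusted p = 8.28e-09), 0.73 (adjusted p = 0.00321) and 0.94 (adjusted p = 2.48e-10) in clusters 10, 14 and 17.

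Among kainate subunits Grik4, a high-affinity subunit of CA3 mossy fibre synapses, was called higher in 10 of 12 classes. In CA3-like nuclei it was at 1869.7 and 1792 scaled CPM in HDACi-CFC, against 1159 and 1116 scaled CPM in Veh-CFC (log2 fold change 0.69 ± 0.071, adjusted p = 1.22e-09). In Cluster 8 it was at 1261 and 1147 scaled CPM in HDACi-CFC, against 678 and 656 scaled CPM in Veh-CFC (log2 fold change 0.85 ± 0.094, adjusted p = 9.37e-07). Both stayed called by total UMIs (0.44 and 0.58) and neither per nucleus (0.29 and 0.44). DG granule-like nuclei had 280.0 and 275 scaled CPM in HDACi-CFC, against 195 and 209 scaled CPM in Veh-CFC (log2 fold change 0.46 ± 0.071, adjusted p = 1.19e-05), and the sign turned per nucleus (-0.051). Per 100 Grik2 UMIs, the Grik4 UMIs of CA3-like nuclei were 126 and 112 in HDACi-CFC and 93 and 88.8 in Veh-CFC, and Cluster 8 held 130.1 and 122 in HDACi-CFC and 75 and 71.7 in Veh-CFC, without overlap. For DG granule-like nuclei that count was 17 and 15.5 in HDACi-CFC and 14.4 and 15.1 in Veh-CFC. CA3 markers were measured beside these values. In Cluster 8 the 7 markers, all with a UMI and 63.8% Cpne4, summed to 1643 and 1700 CPM in HDACi-CFC against 1227 and 1271 CPM in Veh-CFC. In DG granule-like nuclei, all with a UMI and 91.1% Cpne4, they summed to 469 and 509 CPM in HDACi-CFC against 296 and 316 CPM in Veh-CFC. Both sums were higher in HDACi-CFC without overlap, and their part in the Grik4 result was not tested.

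Grik3, a low-affinity subunit, had its highest fold change in interneuron-like nuclei, 276 and 238 scaled CPM in HDACi-CFC, against 94.7 and 99.8 scaled CPM in Veh-CFC (log2 fold change 1.39 ± 0.12, adjusted p = 4.13e-07), a 2.63-fold difference. It stayed called by total UMIs (1.07), per nucleus (0.91) and without each library in turn (1.29 to 1.51). Clusters 10 and 14 gave 1.51 (adjusted p = 4.46e-07) and 1.30 (adjusted p = 0.000901), and it was not tested in cluster 17. In subicular-cortical-like nuclei it was at 835 and 445 scaled CPM in HDACi-CFC, against 255 and 233 scaled CPM in Veh-CFC (log2 fold change 1.34 ± 0.24, adjusted p = 0.00398), with HDACi-CFC 1, of 32 nuclei, well above HDACi-CFC 2. OPC-like nuclei had 218 and 185 scaled CPM in HDACi-CFC, against 95.5 and 104 scaled CPM in Veh-CFC (log2 fold change 0.99 ± 0.22, adjusted p = 0.0004). DG granule-like nuclei had 73.7 and 65 scaled CPM in HDACi-CFC, against 51.9 and 49.7 scaled CPM in Veh-CFC (log2 fold change 0.45 ± 0.096, adjusted p = 0.000482), where the sign turned per nucleus (-0.059). Grik3 was under the filter on low counts in CA3-like nuclei.

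Grik5, the other high-affinity subunit, rose in 3 of 11 classes. DG granule-like nuclei had 217 and 186 scaled CPM in HDACi-CFC, against 125 and 129.5 scaled CPM in Veh-CFC (log2 fold change 0.66 ± 0.081, adjusted p = 4.86e-07). CA1-like nuclei had 205 and 182 scaled CPM in HDACi-CFC, against 141 and 149 scaled CPM in Veh-CFC (log2 fold change 0.41 ± 0.087, adjusted p = 0.00138). In CA3-like nuclei the call (0.31, adjusted p = 0.0273) was lost without HDACi-CFC 1 (0.20), Veh-CFC 1 (0.29) or Veh-CFC 2 (0.35), and per nucleus the sign turned in CA1-like (-0.046) and CA3-like nuclei (-0.088). Interneuron-like nuclei had 129.9 and 110.3 scaled CPM in HDACi-CFC, against 110.3 and 107 scaled CPM in Veh-CFC, with overlap (0.13, adjusted p = 0.433). Grik2, another low-affinity subunit, rose in 4 of 13 classes, with 1647 and 1769.6 scaled CPM in HDACi-CFC, against 1354 and 1386 scaled CPM in Veh-CFC in DG granule-like nuclei (log2 fold change 0.32 ± 0.058, adjusted p = 7.59e-05). Its fold change was 0.30 (adjusted p = 0.00179) in CA3-like and 0.37 (adjusted p = 0.0034) in interneuron-like nuclei. Per nucleus these 3 turned to -0.18, -0.095 and -0.11, and by total UMIs the first turned to -0.041. Grik1 rose in interneuron-like nuclei, at 1682 and 1486 scaled CPM in HDACi-CFC, against 1331 and 1123 scaled CPM in Veh-CFC (log2 fold change 0.37 ± 0.10, adjusted p = 0.0107), a call that was lost without Veh-CFC 2 (0.25) and turned to -0.11 per nucleus. It fell in OPC-like nuclei, at 301 and 269 scaled CPM in HDACi-CFC, against 387 and 377 scaled CPM in Veh-CFC (log2 fold change -0.43 ± 0.16, adjusted p = 0.0374). Leaving out any 1 of the 4 libraries lost this call at -0.46 to -0.31, while the other 2 scalings kept it (-0.75 and -0.93).

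In glia-like and small classes the counts rest on fewer UMIs. Among OPC-like nuclei 5 of the 9 rose and 2 fell (17.3% and 12.4% of all genes), oligodendrocyte-like 4 and 0 of 9 (19.6% and 17.4%), microglia-like 2 and 0 of 4 (20.8% and 18.5%) and astrocyte-like 0 and 0 of 8 (14.2% and 11.7%). At an unadjusted p below 0.05 edgeR gave 1 higher and 1 lower in astrocyte-like and 0 lower in oligodendrocyte-like and microglia-like nuclei, and DESeq2 called 0 in each of these 4 counts. Gria1 in microglia-like nuclei was at 368 and 285 scaled CPM in HDACi-CFC, against 154 and 142 scaled CPM in Veh-CFC (log2 fold change 1.12 ± 0.20, adjusted p = 1.34e-06). In oligodendrocyte-like nuclei it was at 279 and 277 scaled CPM in HDACi-CFC, against 133 and 126 scaled CPM in Veh-CFC (log2 fold change 1.10 ± 0.13, adjusted p = 9.53e-06). The oligodendrocyte-like call stayed by total UMIs (0.74) and per nucleus (0.59), and the microglia-like one by total UMIs (0.87) and not per nucleus (0.63). In the Context pair, with no test, the log2 ratio of Gria1 in oligodendrocyte-like nuclei was -0.32 (-0.60 to -0.053), of the other sign. These levels are 6.61% and 6.98% of the DG granule-like level in vehicle, under the share of the DG granule marker list there (10.4% and 22.7%). The list itself was at 369.9 and 409.8 CPM in HDACi-CFC and 392 and 408 CPM in Veh-CFC in microglia-like nuclei, and at 694 and 746 CPM in HDACi-CFC and 847 and 869 CPM in Veh-CFC in oligodendrocyte-like nuclei, where it was lower in HDACi-CFC without overlap. The part of background RNA in these calls was not tested. OPC-like nuclei had 1452 and 1706 scaled CPM in HDACi-CFC, against 1192 and 1097 scaled CPM in Veh-CFC of Gria2 (log2 fold change 0.47 ± 0.12, adjusted p = 0.00163), where the sign turned per nucleus (-0.021). The OPC-like calls of Gria1 and Grik1 were lost without any 1 of the 4 libraries, that of Gria3 without 3 of them and that of Grik4 without Veh-CFC 2 (0.51).

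Of 6 genes tested in Cajal-Retzius-like nuclei 4 rose and 1 fell (11% and 6.28%), immature neuron-like 4 and 1 of 8 (8.77% and 4.72%), Cluster 15 had 5 and 0 of 9 (7.76% and 4.14%) and subicular-cortical-like 4 and 0 of 9 (7.36% and 3.61%). At an unadjusted p below 0.05 edgeR gave 1 lower in Cluster 15 and 1 in subicular-cortical-like nuclei, and DESeq2 called 0 lower in both. The highest fold changes of Gria3, Grik2 and Grik4 were in the 37 to 45 nuclei per CFC library of the Cajal-Retzius-like class. Gria3 was there at 216 and 273 scaled CPM in HDACi-CFC, against 40.7 and 44.8 scaled CPM in Veh-CFC (log2 fold change 2.49 ± 0.46, adjusted p = 0.0089). Grik2 was at 343 and 595 scaled CPM in HDACi-CFC, against 136 and 145 scaled CPM in Veh-CFC (log2 fold change 1.75 ± 0.38, adjusted p = 0.015). No library of one group reached the other for these genes. Grik4 was at 203 and 547 scaled CPM in HDACi-CFC, against 54.3 and 78.3 scaled CPM in Veh-CFC (log2 fold change 2.50 ± 0.56, adjusted p = 0.0174). All 5 Cajal-Retzius-like calls were lost without Veh-CFC 1 or Veh-CFC 2, where Gria3 stood at 2.53 and 2.63, Grik2 at 1.80 and 1.87 and Grik4 at 2.37 and 2.86, and that of Grik4 also without HDACi-CFC 2 (1.71). Of the other calls in small classes, those of Gria3, Gria4 and Grik4 in immature neuron-like nuclei, of Gria3, Grik3 and Grik4 in Cluster 15 and of Gria2, Grik1 and Grik4 in subicular-cortical-like nuclei were lost without at least 1 library, each with its direction kept. Marker lists of other classes were measured beside these calls. In Cajal-Retzius-like nuclei the OPC list (4 of 7 markers with a UMI in each CFC library, 51.5% Tnr) summed to 439 and 494 CPM in HDACi-CFC against 145 and 186 CPM in Veh-CFC, without overlap. The CA3 list there (4 of 7, 43.3% Cpne4) summed to 265 and 564 CPM in HDACi-CFC against 290.1 and 177 CPM in Veh-CFC, where HDACi-CFC 2 was the highest library, as it was for Grik4. The DG granule list there (4 of 8) summed to 950.1 and 229.7 CPM in HDACi-CFC against 259 and 237 CPM in Veh-CFC, where HDACi-CFC 1 was the highest. In immature neuron-like nuclei the 8 DG granule markers, all with a UMI, summed to 3639 and 3907 CPM in HDACi-CFC against 2585 and 2555 CPM in Veh-CFC. In Cluster 15 the 6 CA1 markers, all with a UMI, summed to 1057 and 1010.4 CPM in HDACi-CFC against 658 and 631 CPM in Veh-CFC, and in subicular-cortical-like nuclei the CA3 list (6 of 7, 75.3% Cpne4) summed to 620.4 and 689 CPM in HDACi-CFC against 411 and 477 CPM in Veh-CFC. These 3 sums were higher in HDACi-CFC without overlap, and the part of the lists in the calls was not tested.

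Whether the drug effect differed between classes was tested by the interaction of class and drug, blocked by library, for each of 8 neuronal classes against DG granule-like nuclei. The 9 genes gave 21 calls in 72 tests. The share of all genes called in either direction was 16.8% for CA1-like, 14.3% for CA3-like, 11.6% for Cluster 8, 5.8% for Cluster 15, 3.99% for subicular-cortical-like, 15.7% for interneuron-like, 0.546% for immature neuron-like and 1.45% for Cajal-Retzius-like nuclei. The genes called in these classes numbered 3, 3, 5, 1, 1, 5, 0 and 3 of 9, and for immature neuron-like nuclei 1 had an unadjusted p below 0.05. In interneuron-like minus DG granule-like nuclei Gria4 differed by 0.74 ± 0.096 (adjusted p = 6.46e-09) and Grik3 by 0.84 ± 0.13 (adjusted p = 5.33e-07), so both effects lay higher in interneuron-like nuclei. The effects on Gria2 and Grik5 were lower there, with differences of -0.41 ± 0.085 (adjusted p = 0.000162) and -0.62 ± 0.13 (adjusted p = 0.00029), and that on Gria1 was higher, with 0.33 ± 0.080 (adjusted p = 0.00174). In CA3-like minus DG granule-like nuclei the difference was -0.48 ± 0.060 (adjusted p = 4.14e-11) for Gria2, -0.30 ± 0.058 (adjusted p = 2.1e-05) for Gria1 and -0.43 ± 0.092 (adjusted p = 0.000178) for Grik5, lower in CA3-like nuclei for the 3 genes. In CA1-like nuclei Gria2 (-0.19 ± 0.057, adjusted p = 0.0154), Grik2 (-0.23 ± 0.058, adjusted p = 0.0048) and Grik5 (-0.32 ± 0.074, adjusted p = 0.00145) lay lower than in DG granule-like nuclei. The differences of Gria4, Grik3 and Grik5 in interneuron-like and of Gria2 in CA3-like nuclei stayed called under both other scalings and without each library, while that of Gria1 in interneuron-like nuclei was lost without Veh-CFC 1 (0.26) and that of Gria2 without HDACi-CFC 2 (-0.21). In CA1-like nuclei the difference of Gria2 was lost without HDACi-CFC 2 (-0.12) or Veh-CFC 2 (-0.15) and that of Grik2 without HDACi-CFC 2 (-0.20) or Veh-CFC 1 (-0.18). By total UMIs the difference of Gria1 in CA3-like nuclei was -0.11 and not called.

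After context exposure without shock there was 1 library per treatment, so ratios carry a 95% counting interval and no test. Of the 65 calls of the CFC comparison, 59 had the same sign in the Context pair with TMM scaling, with 8 of 8 in DG granule-like, 6 of 6 in CA1-like, 7 of 7 in CA3-like and 6 of 7 in interneuron-like nuclei. The other 5 calls with another sign were 2 of 5 in Cajal-Retzius-like, 2 of 4 in oligodendrocyte-like and 1 of 4 in subicular-cortical-like nuclei. Of all genes with at least 100 UMIs, 51.1% lay above 0 in the Context pair in DG granule-like, 51.7% in CA1-like, 54.1% in CA3-like, 54.8% in interneuron-like, 57.6% in subicular-cortical-like, 61.3% in oligodendrocyte-like and 86.5% in Cajal-Retzius-like nuclei. This is another measure than the 59 of 65, as the share of all called genes that kept their sign was not measured. Of the 100 top and 100 bottom genes by CFC fold change in DG granule-like nuclei, 95 and 97 lay nearer HDACi-CFC in HDACi-Context. In DG granule-like nuclei the log2 ratio of HDACi-Context over the library labelled Veh-Context was 0.46 (0.44 to 0.48) for Gria1, 0.82 (0.80 to 0.84) for Gria2 and 0.37 (0.32 to 0.41) for Gria3. Gria4 had in the same nuclei 63.8 scaled CPM in HDACi-Context, against 105 in the library labelled Veh-Context, a log2 ratio of -0.73 (-0.85 to -0.60). In CA1-like and CA3-like nuclei the ratio of Gria4 was -0.70 (-0.81 to -0.59) and -1.01 (-1.22 to -0.80). Grik5 stood at 0.65 (0.54 to 0.76), Grik3 at 0.48 (0.33 to 0.64), Grik2 at 0.25 (0.22 to 0.27) and Grik4 at 0.11 (0.040 to 0.19) in DG granule-like nuclei. Grik4 in CA3-like nuclei was at 0.58 (0.53 to 0.64). In interneuron-like nuclei Gria1 stood at 0.92 (0.88 to 0.96), Grik3 at 1.02 (0.81 to 1.22) and Gria4 at 0.34 (0.29 to 0.40), and Grik4 at -0.15 (-0.44 to 0.14) was the call of the CFC comparison with another sign. Gria4 per 100 Gria2 UMIs was 1.84 in HDACi-Context and 5.38 in the library labelled Veh-Context in DG granule-like nuclei, 3.76 and 9.38 in CA1-like nuclei, and 31.1 and 60.7 in OPC-like nuclei. Scaling by total UMIs left 3 of the DG granule-like genes above 0 by their interval in place of 7. By that scaling Grik2 (1563 CPM in HDACi-Context against 1684) and Grik4 (193 against 227 CPM) turned sign in DG granule-like nuclei. Grik5 did so in CA3-like nuclei (113 against 118 CPM), and the other calls of these 2 classes kept their sign.

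**Figure D5:**
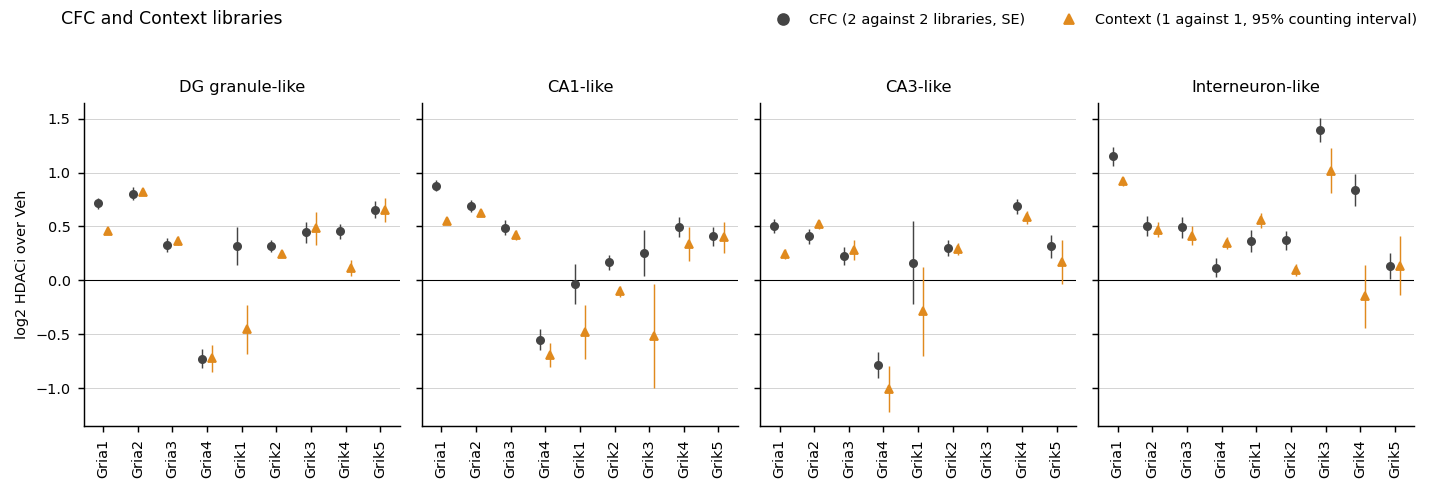
Log2 ratio of HDACi over Veh for the 9 subunits in 4 classes, as the CFC fold change with its SE (circles, 2 against 2 libraries) and the Context ratio with its 95% counting interval (triangles, 1 against 1), for genes with at least 20 UMIs in both Context libraries. With TMM scaling Gria4 lies below 0 in both pairs in DG granule-like, CA1-like and CA3-like nuclei and above 0 in both in interneuron-like nuclei.

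The 38 partner genes are auxiliary subunits, assembly factors, scaffold and trafficking proteins, extracellular binding proteins, editing enzymes and delta receptors. In DG granule-like nuclei 20 of 36 tested were higher and 6 lower, in CA1-like 20 and 3 of 36, in CA3-like 9 and 2 of 32, and in interneuron-like 24 and 0 of 37. Over all genes the shares higher and lower were 23.7% and 26.7%, 18.4% and 20.4%, 14.3% and 12.7% and 17% and 13.1% in these classes. At an unadjusted p below 0.05 and by DESeq2 also 0 were lower in interneuron-like nuclei. The medians were 0.31, 0.31, 0.27 and 0.56 by log2 fold change. By total UMIs the counts became 11 higher and 12 lower in DG granule-like, 10 and 9 in CA1-like, 5 and 3 in CA3-like and 15 and 4 in interneuron-like nuclei, beside 10.0% and 45.8%, 7.51% and 42.1%, 6.53% and 26.7% and 7.26% and 34% of all genes. Scaling per nucleus left 4 higher and 12 lower in DG granule-like, 2 and 5 in CA1-like, 1 and 2 in CA3-like, and 2 and 2 in interneuron-like nuclei, beside 4.43% and 46.2%, 1.84% and 32.6%, 1.3% and 21.9% and 1.41% and 27.9% of all genes. The genes named next kept their direction under both of these scalings. In DG granule-like nuclei the highest was Cacng5, a stargazin-family auxiliary subunit, at 14.9 and 14.7 scaled CPM in HDACi-CFC, against 4.58 and 4.67 scaled CPM in Veh-CFC (log2 fold change 1.67 ± 0.19, adjusted p = 1.22e-07). Cnih3, a cornichon that slows AMPA receptor closing, was at 284 and 276 scaled CPM in HDACi-CFC, against 116 and 117 scaled CPM in Veh-CFC (log2 fold change 1.27 ± 0.073, adjusted p = 3.43e-12). Nsf, an ATPase that binds GluA2, was at 1907 and 1825 scaled CPM in HDACi-CFC, against 799 and 807 scaled CPM in Veh-CFC (log2 fold change 1.22 ± 0.058, adjusted p = 2.2e-13). Nptx1, a secreted pentraxin that clusters AMPA receptors, had a log2 fold change of 1.10. The lowest was Neto2, a kainate receptor auxiliary subunit, at 3.81 and 4.79 scaled CPM in HDACi-CFC, against 10.3 and 10.4 scaled CPM in Veh-CFC (log2 fold change -1.24 ± 0.21, adjusted p = 4.33e-05). Others called lower were Olfm3 (-0.90), the scaffold Dlg1 (-0.70) and the auxiliary subunit Cacng2, stargazin (-0.40). In CA1-like nuclei Nsf (1.07), the auxiliary subunit Shisa6 (0.99) and Cnih3 (0.94) rose. So did Cacng5, from few UMIs, at 4.17 and 4.08 scaled CPM in HDACi-CFC, against 0.472 and 0.699 scaled CPM in Veh-CFC (log2 fold change 2.74 ± 0.43, adjusted p = 9.83e-05). Adarb1, an RNA-editing deaminase known for the GluA2 pore site, fell there at 21.7 and 18.9 scaled CPM in HDACi-CFC, against 42 and 50.5 scaled CPM in Veh-CFC (log2 fold change -1.21 ± 0.14, adjusted p = 4.52e-06), as did Dlg1 (-0.65) and Olfm3 (-0.39).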

How the data were processed

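The 6 single-nucleus libraries (10x 3′ v3) of pooled mouse hippocampus were analysed from the deposited raw UMI counts per gene and barcode, which are not normalized. Per the file headers they came from Cell Ranger 3.0.1 (CFC) and 3.0.2 (Context), and per the submitters' processing notes the build was mm10 and Seurat 4.0.3 was used later. Whether intron reads were counted is not given in the sources used here, and per the labels 4 libraries were pooled for sequencing, so the Context libraries may have been sequenced apart. Barcodes under 500 genes or above 5% of UMIs from mitochondria were dropped, Scrublet doublets removed (expected rate 0.06), and 26 clusters made with scanpy 1.11.5 and leidenalg 0.10.2 (2000 variable genes without the 9 subunits and 38 partners, 30 components, 20 neighbours, resolution 1.0). A cluster took a class name at a mean log2 ratio over the other clusters of at least 0.8 for a marker list, with at least 3 markers detected and 1 or more among its top 10 genes, and a cluster whose median UMI count was in any library under 1/3 of that library's also needed more genes of its list there than of any other. Cluster 8 and Cluster 15, with 30 or more nuclei in every library, stayed unnamed and were tested by number. Another 5 unnamed clusters of 61 to 530 nuclei were not tested: cluster 13 was of low depth, with 1 astrocyte and 1 choroid plexus marker in its top 10, and the others had no marker of their best list there and fewer than 30 nuclei in a library.

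Raw UMIs were summed per library and class with at least 30 nuclei per CFC library and tested with the two-sided quasi-likelihood F test of edgeR 4.0.16 under R 4.3.3 after filterByExpr and TMM, adjusted over all genes of a class. Scaled CPM are after TMM scaling over the 4 CFC libraries or over the Context pair, errors of fold changes are SE, and Context intervals are exact binomial ones at 95%, which cover counting error only. Alternatives were scaling by total UMIs and per nucleus, DESeq2 1.42.0, no filter, a replicate block, leaving out each library, 6 libraries with exposure as a term, doublets kept, and a per-nucleus marker gate. Clusters alone and the alternatives of the interaction were added after seeing the data. The test was checked on simulated counts with few changed genes and a fixed dispersion, a setting that does not cover the choice of scaling. Gene IDs (30934 of 31053) matched GENCODE M21 on GRCm38. Named were the 9 subunits, the called partners with the 4 highest and 4 lowest fold changes in 2 classes, and for each subunit the 2 genes with the most similar vehicle profile among named genes reaching 50 CPM. The members, gene lists and markers were chosen with earlier results of these data known.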

Additional observations from a re-analysis of the deposited data

Results flagged for a closer look

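Drug effects of 21 of 72 tested pairs of subunit and class differed from the effect in DG granule-like nuclei (edgeR interaction, adjusted p below 0.05, values are the log2 fold change in the class minus that in DG granule-like nuclei). In interneuron-like nuclei these were Gria4 at 0.74, Grik3 at 0.84, Gria1 at 0.33, Gria2 at -0.41 and Grik5 at -0.62. In CA3-like nuclei they were Gria1 at -0.30, Gria2 at -0.48 and Grik5 at -0.43. In CA1-like nuclei they were Gria2 at -0.19, Grik2 at -0.23 and Grik5 at -0.32. In Cluster 8 they were Gria1 at -0.23, Gria2 at -0.38, Grik2 at -0.35, Grik4 at 0.30 and Grik5 at -0.59. Grik3 differed by 0.81 in subicular-cortical-like nuclei, a call that was lost without HDACi-CFC 1 (0.51), Veh-CFC 1 (0.78) or Veh-CFC 2 (0.69). Grik1 differed by -0.96 in Cluster 15, which was lost without HDACi-CFC 1 (-0.57) or Veh-CFC 2 (-0.29). In Cajal-Retzius-like nuclei Gria3 differed by 2.53, Grik2 by 1.75 and Grik4 by 2.38, and these 3 were lost without Veh-CFC 1 (2.29, 1.56 and 2.03) or Veh-CFC 2 (2.45, 1.60 and 2.43), the last 2 also without HDACi-CFC 2 (1.33 and 1.44). In Cluster 8 the difference of Gria1 was lost without 3 of the 4 libraries (-0.23 to -0.20), that of Gria2 without Veh-CFC 2 (-0.30), that of Grik2 without 3 (-0.34 to -0.27) and that of Grik4 without HDACi-CFC 1 (0.23) or Veh-CFC 2 (0.24), while that of Grik5 stayed called.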

How the results depend on the processing

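Without any 1 CFC library the calls ran from 0 to 2 higher and 0 to 1 lower in astrocyte-like nuclei, 0 to 5 and 0 to 1 in Cajal-Retzius-like, 3 to 4 and 0 to 1 in Cluster 15, 2 to 4 and 0 to 1 in immature neuron-like, 2 to 4 and 1 in OPC-like, and 1 to 3 higher in subicular-cortical-like nuclei, and interaction calls ran from 1 to 4 in CA1-like, 0 to 3 in Cajal-Retzius-like, 0 to 1 in Cluster 15, 1 to 4 in Cluster 8 and 0 to 2 in subicular-cortical-like nuclei. Grik1 in CA1-like nuclei ran from -0.074 to 0.039.

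By total UMIs the calls were 2 higher and 2 lower in CA1-like, 3 higher in CA3-like, DG granule-like and interneuron-like, 2 and 2 in Cluster 15, 2 higher in immature neuron-like, 1 higher in OPC-like, 2 lower in oligodendrocyte-like, 1 and 1 in subicular-cortical-like and 1 lower in astrocyte-like nuclei, with 2 interaction calls in Cluster 8. Gria3 turned to -0.023 in CA3-like and -0.032 in DG granule-like, Gria4 to -0.21 and Grik5 to -0.19 in interneuron-like, Grik1 and Grik2 to -0.043 and -0.041 in DG granule-like, and Grik2 to -0.17 and Grik3 to -0.077 in CA1-like nuclei. In the Context pair 3 genes lay above and 4 below 0 in DG granule-like, 3 above in CA1-like, 3 above and 2 below in CA3-like, and 2 below in interneuron-like nuclei.

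Per nucleus 0 were higher in CA1-like, CA3-like, Cluster 15, Cluster 8, DG granule-like, immature neuron-like, microglia-like and OPC-like nuclei, and 1 in interneuron-like, oligodendrocyte-like and subicular-cortical-like nuclei. Lower were 1 in astrocyte-like, 0 in Cajal-Retzius-like, 2 in Cluster 15, 2 in oligodendrocyte-like and 1 in subicular-cortical-like nuclei, with interaction calls of 1, 4 and 2 in CA1-like, Cluster 15 and Cluster 8. Turned were Gria2 (-0.021) and Gria3 (-0.074) in OPC-like, Gria3 in CA3-like (-0.17), Cluster 8 (-0.073) and DG granule-like (-0.17), Gria4 (-0.36), Grik1 (-0.11), Grik2 (-0.11) and Grik5 (-0.34) in interneuron-like, Grik1 (-0.19), Grik2 (-0.18), Grik3 (-0.059) and Grik4 (-0.051) in DG granule-like, Grik2 (-0.27), Grik3 (-0.19) and Grik5 (-0.046) in CA1-like, and Grik2 (-0.095) and Grik5 (-0.088) in CA3-like nuclei. Median shifts of all genes under both scalings stand with the data above.

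DESeq2 called 2 higher in Cajal-Retzius-like, 3 in Cluster 15, 2 and 0 lower in immature neuron-like, and 2 and 1 lower in OPC-like nuclei. Without a filter there was 1 lower in astrocyte-like, Cluster 15 and subicular-cortical-like nuclei, and 3 higher and 1 lower in OPC-like. With 6 libraries there were 1 higher and 1 lower in astrocyte-like, 1 higher in Cajal-Retzius-like, and 1 lower in Cluster 15 and subicular-cortical-like nuclei, and Grik1 in DG granule-like and Grik3 in CA1-like nuclei turned to -0.035 and -0.035. Keeping doublets gave 4 higher in astrocyte-like and 6 in microglia-like nuclei. The marker gate gave 1 higher in astrocyte-like, 2 lower in CA1-like, 1 and 2 in Cajal-Retzius-like, 1 and 0 in immature neuron-like, 2 and 1 in OPC-like and 1 lower in subicular-cortical-like nuclei, 5, 1 and 1 interaction calls in CA3-like, Cajal-Retzius-like and immature neuron-like nuclei, and vehicle levels of 148 CPM for Grik3 and 911 CPM for Grik4 in their highest class, and Gria4 in immature neuron-like and Grik2 in Cajal-Retzius-like nuclei turned to 0.046 and -0.29. Cluster 17 alone gave 1 higher and 1 lower and Gria4 and Grik5 at -0.49 and -0.13, cluster 14 alone Gria4 at -0.011, and cluster 3 alone Grik1 at 0.17. The cause of these changes was not tested. With the replicate block 64 of the 65 calls were kept, 1 higher and 1 lower appeared in astrocyte-like nuclei and 1 lower in Cluster 15. Deviations of same-numbered libraries correlated at 0.006 to 0.129, so the numbers were not taken as a pairing. Pools of 5 mice, 2 libraries per CFC group, and 32 to 46 nuclei per library in the smallest classes limit the precision.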
